A study of Mus musculus with 12 samples.

Results

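The miRNA profile of A129-17, a mouse androgenetic haploid embryonic stem cell (ESC) line, was compared with those of A129-2 and A129-6, further lines of the same kind. The 7 libraries of the 3 lines, out of 12 in the series, were chosen by their line label: 2 of A129-17, 2 of A129-2 and 3 of A129-6. The difference tested was A129-17 minus the mean of A129-2 and A129-6, with both lines weighed equally. All 3 lines were labelled wild type, had been derived and grown with LIF and the kinase inhibitors PD0325901 and CHIR99021 (2i), and were collected by fluorescence-activated sorting. The diploid ESC line R1 (2 libraries, wild type, also sorted) is given beside some results, and round spermatids sorted from testes of 129Sv males (3 libraries) were not used. Small RNA was sequenced, and the values are counts of reads per miRNA. The labels describe replicates as independent sorts. The sources used here do not say whether these were separate cultures. A129-17 is 1 line, and p-values therefore measure how libraries vary within a line, not how lines vary.

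Androgenetic haploid ESC are derived from embryos that carry a single set of chromosomes, of paternal origin, and cells of such lines become diploid over time in culture. The title of the series concerns let-7a and this diploidisation. A miRNA is cut by Drosha and Dicer from a hairpin, and either strand of the duplex, the 5p or the 3p arm, can be loaded into Argonaute. Bases 2 to 8 of the loaded strand, the seed, pair with target mRNAs. In mouse ESC the miR-290 cluster dominates and speeds the cell cycle, while let-7 miRNAs accumulate as the cells differentiate.

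Of 697 features tested, 12 (1.72%) differed between A129-17 and the other lines at an adjusted p below 0.05 (edgeR's quasi-likelihood test with Benjamini-Hochberg adjustment), the threshold for all calls below. Of these, 11 were higher in A129-17 (1.58% of those tested) and 1 was lower (0.143%). Their mature sequences, from the RefSeq tables for GRCm38.p6, are printed because the calls group partly by shared sequence and by arm; capitals mark the seed. The first 3 share the run GAGATGGCT (DNA letters), the next 5 come from the miR-17/92 and miR-290 clusters and their paralogs, known for a role in proliferation, 3 more were higher, and the last was lower.
miR-3473b: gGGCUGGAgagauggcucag
miR-3473e: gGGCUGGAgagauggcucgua
miR-5128: cAAUUGGGgcuggcgagauggcu
miR-92a-1-5p: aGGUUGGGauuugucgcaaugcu
miR-92a-2-5p: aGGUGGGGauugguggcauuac
miR-25-5p: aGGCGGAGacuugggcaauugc
miR-290a-3p: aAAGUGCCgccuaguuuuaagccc
miR-291b-5p: gAUCAAAGuggaggcccucucc
miR-149-5p: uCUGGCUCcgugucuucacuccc
miR-760-3p: cGGCUCUGggucugugggga
miR-219a-1-3p: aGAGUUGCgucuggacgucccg
miR-335-3p: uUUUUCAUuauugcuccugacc
The 12 miRNAs have 11 seeds. Only miR-3473b and miR-3473e share one, GGCUGGA. The seed of miR-290a-3p, AAGUGCC, holds the AAGUGC core typical of the ESC cell cycle miRNAs.

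The 12 come from 12 hairpins on 10 chromosomes (GRCm38.p6, gene models of GENCODE vM21). miR-3473b lies at chr10:41670774-41670793 (+), in an intron of Ccdc162 on the opposite strand, miR-3473e at chr5:31667296-31667316 (-) in an intron of Rbks, and miR-5128 at chr2:37688212-37688234 (-) in an intron of Strbp. miR-92a-1-5p lies at chr14:115044437-115044459 (+) in the host transcript Mir17hg, miR-92a-2-5p at chrX:52741892-52741913 (-) outside any annotated gene other than miRNAs, and miR-25-5p at chr5:138165370-138165391 (-) within Mcm7, which encodes a subunit of the replicative helicase. miR-290a-3p lies at chr7:3218674-3218697 (+) outside other genes, and miR-291b-5p at chr7:3219494-3219515 (+) opposite an exon of Nlrp12. miR-149-5p lies at chr1:92850381-92850403 (+) in an intron of Gpc1, miR-760-3p at chr3:122293615-122293634 (-) in the transcript Gm17494, and miR-219a-1-3p at chr17:34025010-34025031 (-) in the lincRNA Gm26940. miR-335-3p lies at chr6:30741354-30741375 (+) in an intron of Mest, an imprinted gene expressed from the paternal chromosome. The positions are those of the RefSeq tables and carry no signal of their own.

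Counts per library ranged from 3709786 to 9102467. The most abundant miRNA, miR-292a-5p, took 35.6% to 45.8% of counts in A129-2 and in A129-6 replicates 1 and 2, 56.9% in A129-6 replicate 3, and 56.5% and 50.7% in A129-17. A129-6 replicate 3 stood apart from its line. On the first principal component of the 7 libraries, which held 33.5% of the variance, it scored 12.7, beside 12.6 and 9.62 for A129-17, while the other 4 scored -11.3 to -5.38. On the second, with 21% of the variance, it scored -13.3, far from the 4.29 and 12.3 of A129-17. Its log2 levels correlated at 0.962 and 0.958 with the rest of A129-6 and at 0.964 and 0.953 with A129-17. Its TMM scaling factor was 0.726, the lowest of the 7, followed by 0.755 for A129-17 replicate 1. Results are therefore given with and without that library. It was singled out because it lay near A129-17 on the first component, so leaving it out favours a difference. Calls made only without it are therefore no independent support. Without it, 68 of 689 features were called (9.87%), 45 higher (6.53%) and 23 lower (3.34%), and they included all 12. Leaving out any 1 of the other 6 libraries gave 1 to 6 calls, and of the 12 only miR-3473b passed with each of the 7 libraries left out in turn. Values below are normalised CPM (library sizes scaled by TMM), and differences are on the log2 scale, followed by their standard error (SE). Scaling by total counts instead moved the median of all features from 0.04 to -0.37 and left 0 calls in edgeR (17.5% of the 697 had an unadjusted p below 0.05); the medians of lists moved down with it, and are given where their sign turned. Fewer cells with a miRNA and less of it per cell cannot be told apart in these bulk samples.

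**Figure D1:**
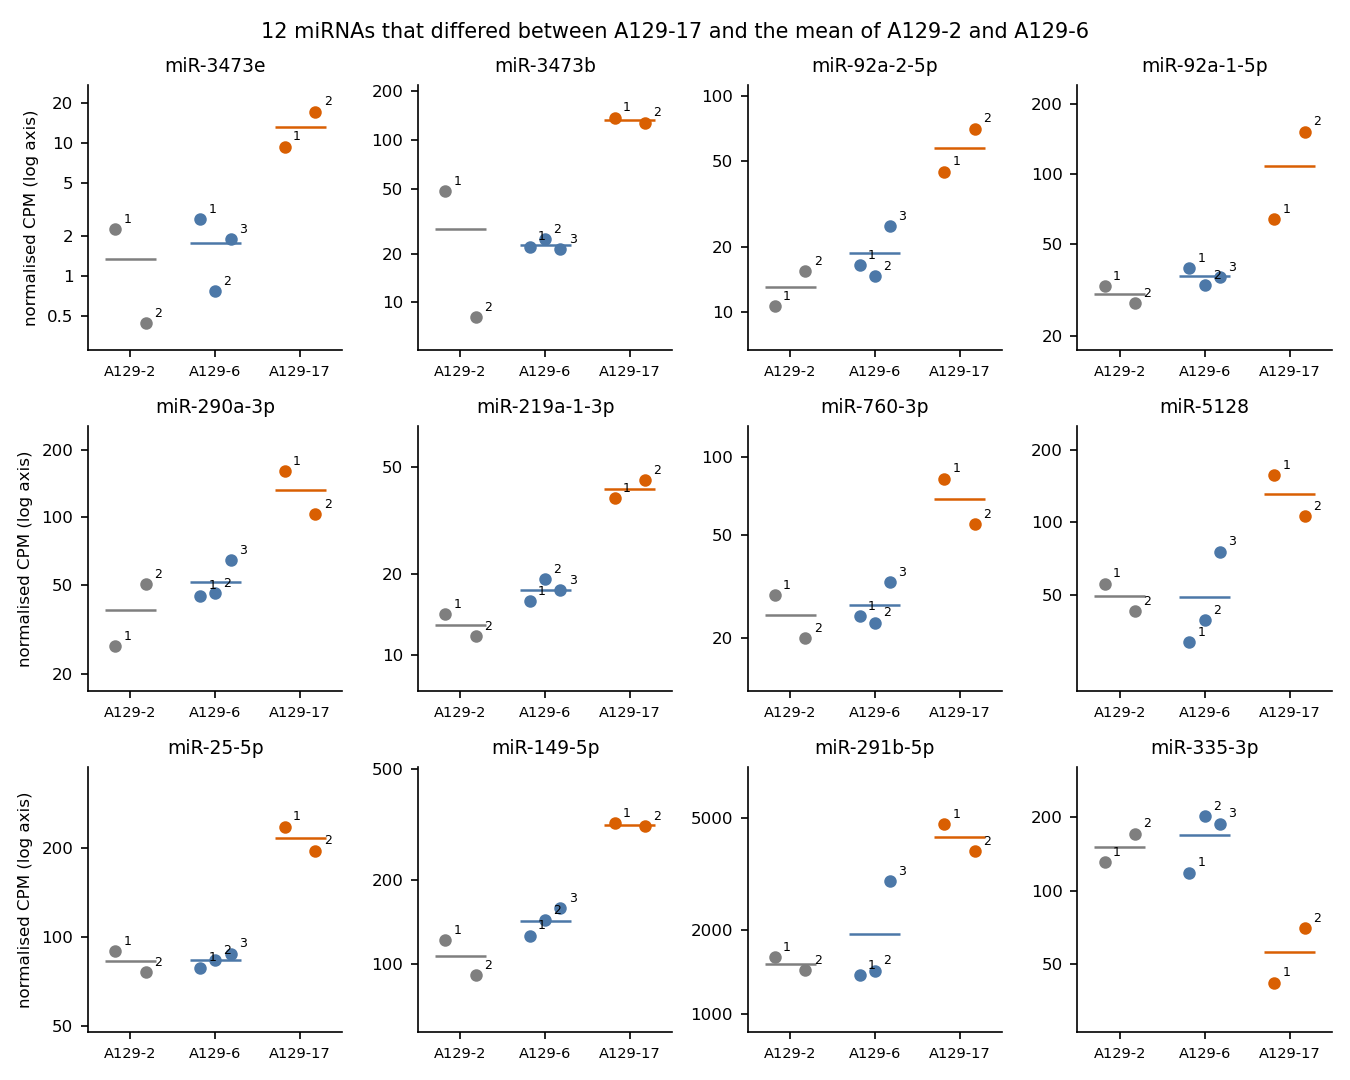
Normalised CPM (log axis) of the 12 called miRNAs in each of the 7 haploid libraries; points are libraries, numbered by replicate, and horizontal lines are line means. For 11 miRNAs both A129-17 libraries lie above all 5 others, and for miR-335-3p both lie below, while replicate 3 of A129-6 is the highest of the 5 others for 6 of the 11.

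miR-3473b and miR-3473e had the largest increases among the calls. miR-3473b was at 137.8 and 128.3 normalised CPM in A129-17 against 48.8 and 8.08 in A129-2 and 22.04, 24.6 and 21.2 in A129-6. The lower A129-17 library was 2.63-fold above the highest of the others, although the A129-2 libraries differed widely from each other. The difference was 2.40 on the log2 scale (SE 0.44, 95% interval 1.47 to 3.32, adjusted p = 0.0137), or 5.27-fold. Without A129-2 replicate 1 it was 3.24 (SE 0.34, adjusted p = 0.000811), and over all alternatives it ran from 1.88 to 3.24. miR-3473e was at 9.42 and 17.2 in A129-17 against 2.27 and 0.443 in A129-2 and 2.69, 0.773 and 1.89 in A129-6, with log2 3.13 (SE 0.62, adjusted p = 0.0137), or 3.81 without A129-2 replicate 1 (SE 0.71, adjusted p = 0.0391). Its call was lost when replicate 2 of A129-2 (2.67, adjusted p = 0.202) or of A129-17 (2.59, adjusted p = 0.145) was left out. It rests on few reads: 49 and 89 counts in A129-17 and 4 to 22 in the others. miR-5128 was at 157 and 106 in A129-17 against 55.9 and 43.0 in A129-2 and 32.1, 39.6 and 75.7 in A129-6. Its groups did not overlap, but A129-6 replicate 3 came nearest, and its call (log2 1.42, SE 0.36, adjusted p = 0.0499965) was the closest to the threshold; without that library it was 1.64 (SE 0.30, adjusted p = 0.00545).

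These 3 miRNAs and miR-3473a are the 4 in the table whose RefSeq sequence contains GAGATGGCT, a run found here after the calls were seen. The start of the rodent B2 repeat, a short interspersed element with very many genomic copies, holds this run. miR-3473a had 24 and 24 counts in A129-17 and 17, 8, 17, 10 and 1 in the others, with log2 1.56 (SE 0.79, adjusted p = 0.321), which did not pass. miR-3473f, which lacks the run, had 13 and 18 counts in A129-17, 11, 6 and 7 in A129-6 and 0 in both A129-2 libraries, and was not called with all 7 libraries (adjusted p = 0.0632). miR-3473d had 11 and 4 counts in A129-17 against 7 to 24 in the others, with log2 -0.66 (SE 0.87), so the members of the miR-3473 group did not all have the same sign. GAGATGGCT, searched on both strands, occurred in 287 of 32817 RefSeq promoter windows of 300 bases (0.875%), and the whole 20 bases of miR-3473b in 32 of them (0.0975%). The whole sequences of the other called miRNAs occurred in 0 windows, except that of miR-290a-3p in 1. miR-3473b and miR-3473e differ by 3 edits, and the sources used here do not say how reads with several matches were counted, which leaves the split between them uncertain.

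From the miR-17/92 cluster and its paralogs, which promote proliferation, 3 miRNAs of 24 tested were higher (12.5% of the list, beside 1.58% of all features) and none lower. All 3 were 5p arms of hairpins whose 3p arm is the abundant one. miR-92a-1-5p was at 63.8 and 152 in A129-17 against 32.7 and 27.7 in A129-2 and 39.2, 33.3 and 36.0 in A129-6. The 5 other libraries lay close together, whereas the A129-17 libraries were far apart; the log2 difference was 1.71 (SE 0.35, adjusted p = 0.0137). The call was lost without A129-17 replicate 2 (0.91, SE 0.44, adjusted p = 0.352) and, with little change in size, without A129-2 replicate 1 (1.71, adjusted p = 0.0946) or replicate 2 (1.61, adjusted p = 0.202). miR-92a-2-5p was at 44.6 and 70.7 in A129-17 against 10.6 and 15.4 in A129-2 and 16.4, 14.6 and 25.0 in A129-6 (log2 1.89, SE 0.37, adjusted p = 0.0137). miR-25-5p was at 237 and 196 in A129-17 and between 75.9 and 89.4 in all 5 others, the tightest control group of the 12 (log2 1.38, SE 0.28, adjusted p = 0.0137). The abundant miR-92a-3p, shared by both miR-92a hairpins, ranged from 10462 to 12212 in the other lines and was at 11599 and 14380 in A129-17 (log2 0.19, SE 0.28, adjusted p = 0.753). The median of the list was 0.03 (-0.36 with total-count scaling), beside 0.04 over all features. miR-92b-5p also passed when A129-6 replicate 3 was left out (338 and 186 in A129-17, 93.0 to 122.8 in A129-2 and in A129-6 replicates 1 and 2, and 269 in replicate 3; log2 1.29, SE 0.28, adjusted p = 0.0129).

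The counts of both arms of a hairpin were set side by side for 157 pairs of arms. Of the 12 called miRNAs, 4 were the less abundant arm of such a pair and none the more abundant. For miR-25, the less abundant 5p arm had 179 and 120 counts per 1000 of the 3p arm in A129-17 and 36.3 to 78.9 in the others. For miR-290a, the 3p arm had 250 and 220 counts per 1000 of the 5p arm in A129-17 and 53.1 to 101 in the others. miR-92a-1-5p had 5.50 and 10.6 per 1000 of miR-92a-3p in A129-17 against 2.27 to 3.73, and miR-92a-2-5p 3.85 and 4.92 against 0.888 to 2.39. In all 4 the ratio in both A129-17 libraries was above every other library, as it was for 30 of the 157 pairs (19.1%), and it was below every other for 15 (9.55%). The 4 were picked by a less abundant arm that was called higher without overlap between groups. The order of their ratios was thus largely given in advance and is no separate evidence of a shift between arms. None of the partner arms was called: log2 was -0.27 for miR-25-3p (SE 0.29), -0.28 for miR-290a-5p (SE 0.29) and 0.19 for miR-92a-3p. Over all pairs the less abundant arms had a median of -0.02 and the more abundant arms of -0.09.

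**Figure D2:**
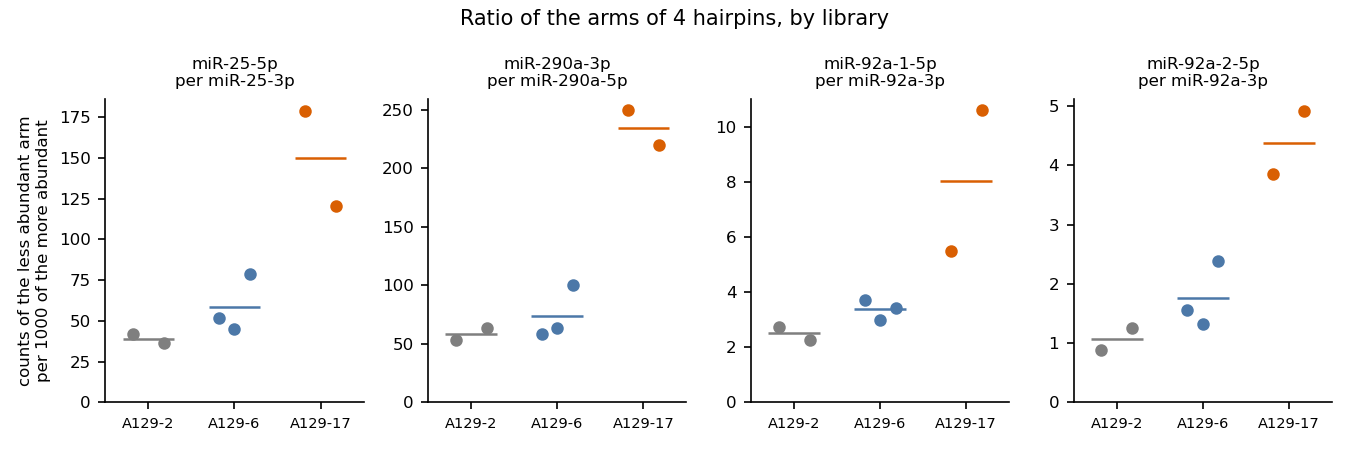
Counts of the less abundant arm per 1000 counts of the more abundant arm of the same hairpin, by line; points are libraries and lines are line means. Both A129-17 points are above all others in the 4 panels, with 179 and 120 for miR-25 and 250 and 220 for miR-290a. The 4 hairpins were chosen because their less abundant arm was called.

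From the miR-290 cluster, 2 of 17 members were higher (11.8%, beside 1.58% of all features) and the median was -0.07. miR-290a-3p, whose seed holds the ESC cell cycle core, was at 161 and 104 in A129-17 against 26.6 and 50.3 in A129-2 and 44.7, 45.8 and 64.5 in A129-6 (log2 1.57, SE 0.34, adjusted p = 0.0211). miR-291b-5p, named after its value was seen, was at 4767 and 3811 in A129-17 against 1598 and 1437 in A129-2 and 1380, 1430 and 2977 in A129-6 (log2 1.33, SE 0.31, adjusted p = 0.0392). Here A129-6 replicate 3 was well above its line, and without it the difference was 1.55 (SE 0.23, adjusted p = 0.00203). miR-291a-5p has the same seed and differs from miR-291b-5p by 2 edits:
miR-291a-5p: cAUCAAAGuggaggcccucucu
It was not called, with log2 -0.43 (SE 0.31, adjusted p = 0.472). miR-291b-5p made up 42.4% and 34.1% of the counts of this pair in A129-17, 34.8% in A129-6 replicate 3 and 10.8% to 15.2% in the other 4, with exact 95% intervals no wider than 0.880 percentage points that cover counting error only. The normalised CPM of the pair together were 11230 and 11159 in A129-17 against 10509 and 13356 in A129-2 and 11425, 10780 and 8558 in A129-6, ranges that overlap. Since the sequences are nearly the same, the assignment of reads between them is uncertain.

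The other members of the miR-290 cluster, the most abundant of the table, were not called with all 7 libraries. miR-292a-5p, the most abundant, was at 748863 and 550408 normalised CPM in A129-17 against 249804 and 461745 in A129-2 and 358792, 315196 and 784497 in A129-6. A129-6 replicate 3 was above both A129-17 libraries, and the log2 difference was 0.64 (SE 0.39, adjusted p = 0.411); without that library it was 0.91 (SE 0.27, adjusted p = 0.0436), a call. miR-292b-3p (0.16, SE 0.32) is read from the strand opposite to that of miR-292a-5p, so without knowledge of the strand used in counting the reads of both cannot be told apart. miR-292a-3p (0.41, SE 0.33), miR-293-3p (-0.49, SE 0.35), miR-294-3p (-0.15, SE 0.29) and miR-295-3p (-0.05, SE 0.33) had adjusted p of 0.455 to 0.950. miR-290b-5p was at 17.1 and 23.2 in A129-17 against 6.24 to 13.2 in the others, with log2 1.18 (SE 0.40, adjusted p = 0.151), and passed without A129-6 replicate 3 (1.29, SE 0.37, adjusted p = 0.0425). Whether reads of miR-290a and miR-290b are independent cannot be told here. Their other arms, miR-290a-5p and miR-290b-3p, had near-equal differences (-0.28 and -0.29). miR-290b-5p is therefore not taken as an increase separate from that of miR-290a-3p. The whole cluster took 76.9% and 74.7% of counts in A129-17 and 64.1% to 77.1% in the others. The miR-302 and miR-367 cluster, typical of later pluripotent cells, had 0 calls of 7 and a median of 0.35 (-0.11 with total-count scaling).

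The other 3 increases were single miRNAs of different genes. miR-149-5p, from an intron of the glypican gene Gpc1, was at 319 and 313 in A129-17 against 121.9 and 91.0 in A129-2 and 126.5, 143.3 and 159 in A129-6 (log2 1.36, SE 0.28, adjusted p = 0.0137). The A129-17 libraries were close to each other and well above the highest of the others. miR-760-3p was at 82.3 and 55.02 in A129-17 against 29.3 and 19.9 in A129-2 and 24.4, 22.9 and 32.9 in A129-6 (log2 1.42, SE 0.35, adjusted p = 0.0429). miR-219a-1-3p was at 38.3 and 44.6 in A129-17 against 14.2 and 11.7 in A129-2 and 15.9, 19.2 and 17.4 in A129-6 (log2 1.46, SE 0.35, adjusted p = 0.0406). The guide strand miR-219a-5p, known from oligodendrocyte differentiation, had 0 and 3 counts in A129-17 and 0 to 3 in the others. miR-219a-2-3p, the same arm of the second hairpin, had log2 0.40 (SE 0.38, adjusted p = 0.625).

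miR-335-3p was the only miRNA called lower with all 7 libraries. It was at 41.9 and 70.3 in A129-17 against 131 and 171.2 in A129-2 and 118, 202 and 188 in A129-6, and the groups did not overlap. The log2 difference was -1.51 (SE 0.36, 95% interval -2.27 to -0.76, adjusted p = 0.0406), and without A129-6 replicate 3 it was -1.46 (SE 0.35, adjusted p = 0.0237). The other arm, miR-335-5p, had 2 and 1 counts in A129-17 and 1 to 22 in the others, too few to be tested. The list of miRNAs from paternally expressed hosts other than Sfmbt2 had 5 members tested. Of these, miR-335-3p was the 1 lower (20.0%, a single miRNA, beside 0.143% of all features). The median of the list was 0.24 (-0.22 with total-count scaling). miR-298-5p, the most abundant of that list, was at 6548 and 3917 in A129-17 and 3634 to 4510 in the others (log2 0.32, SE 0.29, adjusted p = 0.579).

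**Figure D3:**
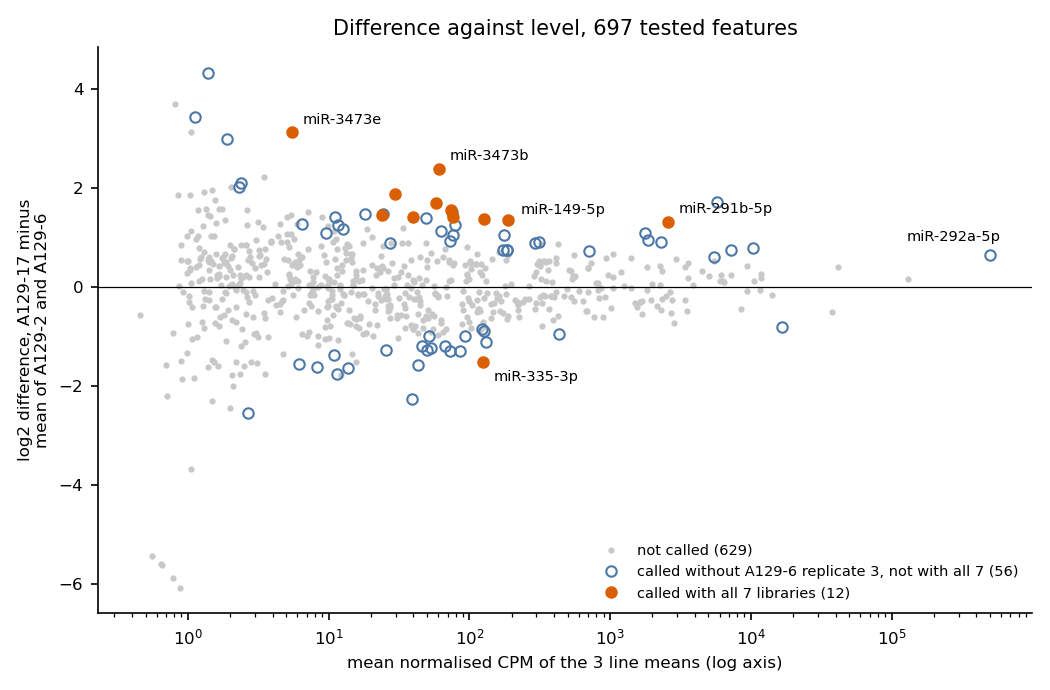
Log2 difference between A129-17 and the mean of A129-2 and A129-6 against the mean normalised CPM of the 3 lines (log axis) for the 697 tested features. Filled points are the 12 calls with all 7 libraries, and open circles the 56 further features that were called when A129-6 replicate 3 was left out; 5 of the calls and miR-292a-5p are named.

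Each other line was also compared with A129-17 on its own; these comparisons share the A129-17 libraries. Against A129-2, 0 of 697 features passed in edgeR, while 19.1% of them had an unadjusted p below 0.05, and DESeq2 called 46. Against A129-6, 0 passed in edgeR, 85 (12.2%) had an unadjusted p below 0.05 and DESeq2 called 16. The 12 calls, made on the mean of both lines, had the same sign against each, as had 512 of the 697 features; their adjusted p were 0.0633 to 0.101 against A129-2 and 0.0631 to 0.212 against A129-6 (edgeR). A129-6 and A129-2 also differed from each other, with 18 of 697 features called (2.58%), 14 higher in A129-6 (2.01%) and 4 lower (0.574%). Once A129-6 replicate 3 was left out, 51 features were called against A129-2 and 20 against A129-6, and 13 were called against both lines in the same direction. These were 10 of the 12, namely all but miR-92a-1-5p and miR-219a-1-3p, and also miR-1306-3p, miR-1981-5p and miR-410-3p.

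Among the 56 features that passed only when A129-6 replicate 3 was left out, 34 were higher and 22 lower; the examples from here to the let-7 results were chosen after their values were seen unless they belong to a list. miR-1981-5p was at 16255 and 4809 in A129-17 against 2453 and 2556 in A129-2 and 2381, 1951 and 8017 in A129-6. The replicate 3 value of A129-6 fell between those of the A129-17 libraries, and the difference was 1.71 (SE 0.46, adjusted p = 0.0632) with it and 2.16 (SE 0.33, adjusted p = 0.00203) without it. miR-1306-3p was at 136 and 127.7 in A129-17 against 65.2 and 29.2 in A129-2 and 26.8, 33.6 and 75.1 in A129-6, so that the groups did not overlap (1.80 without replicate 3, SE 0.34, adjusted p = 0.00545). miR-1198-5p was at 2678 and 2763 in A129-17 against 1529 and 1306 in A129-2 and 848, 874 and 1684 in A129-6 (1.31 without replicate 3, SE 0.23, adjusted p = 0.00545). A129-6 replicate 3 had the highest value of the 5 other libraries for 34 of the 45 miRNAs called higher without it, and for 190 of the 697 tested (27.3%). It had the lowest for 20 of the 23 called lower without it, and for 233 of the 697 (33.4%). These miRNAs were called with that library left out. Such a choice favours miRNAs for which it lay on the side of A129-17, so these counts say little about the library itself.

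No let-7 miRNA was called. let-7a-5p was at 977 and 1437 in A129-17 against 877 and 630 in A129-2 and 773, 702 and 1055 in A129-6. The lower A129-17 value was below that of A129-6 replicate 3, so the groups overlapped, and the log2 difference was 0.60 (SE 0.29, 95% interval -0.0017 to 1.198, adjusted p = 0.294). With A129-6 replicate 3 left out it was 0.71 (SE 0.26, adjusted p = 0.102). Of 11 let-7 members tested, 9 had a positive difference, as had 361 of the 697 features, and the median was 0.31 beside 0.04 (-0.07 beside -0.37 with total-count scaling). let-7f-5p was at 1175 and 1555 in A129-17 and 995 to 1247 in the others (0.31, SE 0.27), and let-7g-5p at 579 and 640 against 427 to 548 (0.33, SE 0.26). The differences of let-7d-5p (0.50, SE 0.34), let-7b-5p (0.25, SE 0.32) and let-7i-5p (0.20, SE 0.27) were positive, and those of let-7e-5p (-0.20, SE 0.27) and let-7c-5p (-0.03, SE 0.28) negative, all with adjusted p of 0.445 to 0.969. let-7d-3p, the member of smallest p, was at 99.2 and 167 in A129-17 and 53.1 to 118 in the others (0.82, SE 0.34, adjusted p = 0.209). The summed family was at 5349 and 6722 normalised CPM in A129-17 against 5472 and 4645 in A129-2 and 5111, 4777 and 5670 in A129-6, and these ranges overlap. After a correction for GC content with A129-6 replicate 3 left out, a setting chosen after the data had been seen, let-7a-5p (1.02, SE 0.27, adjusted p = 0.0295) and let-7f-5p (0.81, SE 0.24, adjusted p = 0.0452) passed, where 40 of 552 features were higher (7.25%) and 26 lower (4.71%). The let-7 sequences differ by as little as 1 base between let-7a-5p and let-7c-5p, so reads may be split between them. The miR-99, miR-100 and miR-125 miRNAs, several of which are co-transcribed with let-7 genes, had 0 calls of 9 and a median of 0.49; miR-99b-5p was at 7535 and 5810 in A129-17 and 5228 to 6814 in the others (0.13, SE 0.28).

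The Dlk1-Dio3 region on chromosome 12 is an imprinted cluster whose miRNAs are expressed from the maternal chromosome. Of 87 members tested, 0 were called with all 7 libraries and the median was -0.25. Both A129-17 libraries were below all 5 others for 10 of the 87 members, beside 6.31% of all features, and above them for 3, beside 11.3%. When A129-6 replicate 3 was left out, 10 members were lower, beside 3.34% of all features, and 2 higher, beside 6.53%. The median was then -0.35, beside 0.03 over all features. The 10 are 11.5% of the 87 members and 43.5% of the 23 miRNAs called lower. miR-410-3p was at 49.2 and 36.6 in A129-17 against 120 and 119 in A129-2 and 88.8, 152 and 38.4 in A129-6, where replicate 3 lay within the A129-17 range (-1.48, SE 0.34, adjusted p = 0.0170 without it). miR-127-3p, the most abundant member, which lies antisense to Rtl1, was at 9877 and 12130 in A129-17 against 22982 and 20005 in A129-2 and 17820, 22990 and 11516 in A129-6. It too had replicate 3 of A129-6 within the A129-17 range, and was called only without it (-0.92, SE 0.26, adjusted p = 0.0383, against -0.82, SE 0.33, adjusted p = 0.201). miR-379-3p was at 3.08 and 8.33 in A129-17 and 10.2 to 24.2 in the others (-1.74, SE 0.47, adjusted p = 0.0317 without replicate 3). The others called lower were miR-134-3p, miR-154-5p, miR-300-3p, miR-329-3p, miR-369-3p, miR-382-3p and miR-409-5p, and those called higher were miR-412-5p and miR-3070-5p. As a share of all counts the region took 4.52% and 5.17% in A129-17 against 8.80% and 6.03% in A129-2 and 6.59%, 7.79% and 5.04% in A129-6. In normalised CPM its sum was 59852 and 56150 in A129-17 and 58118 to 69461 in the others, ranges that overlap.

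The families in an intron of Sfmbt2, which is expressed from the paternal chromosome, had 52 members tested, 0 called and a median of -0.32. Both A129-17 libraries were below all 5 others for 9 of the 52, beside 6.31% of all features, and above for 0, beside 11.3%. miR-669c-5p, the most abundant, was at 2288 and 1255 in A129-17 and 1605 to 2328 in the others (-0.06, SE 0.30, adjusted p = 0.920). miR-669e-5p was at 26.3 and 24.6 in A129-17 against 37.2 to 91.7 and passed only without A129-6 replicate 3 (-1.39, SE 0.36, adjusted p = 0.0290). Many of these sequences are near copies of each other, so their counts are uncertain one by one.

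An X-linked cluster known from testis varied between lines in another way. Its 22 tested members summed to 9569 and 22875 normalised CPM in A129-17, beside 4694 and 6484 in A129-2 and 18310, 17044 and 35064 in A129-6. A129-17 thus lay above A129-2, and its libraries spanned the lower 2 of A129-6. With all 7 libraries no member was called against the mean of both lines or against either line, while 11 of the 22 were higher in A129-6 than in A129-2, beside 2.01% of all features. miR-465a-3p was at 1644 and 4161 in A129-17 against 652 and 779 in A129-2 and 2356, 1961 and 5600 in A129-6 (2.02 against A129-2, adjusted p = 0.0633; -0.19 against A129-6, adjusted p = 0.920), and against the mean of both lines it passed without A129-6 replicate 3 (1.25, SE 0.31, adjusted p = 0.0263). miR-871-3p was at 4184 and 7752 in A129-17 against 1492 and 2118 in A129-2 and 5778, 5036 and 14859 in A129-6, and was likewise called only without that library (0.95, SE 0.28, adjusted p = 0.0425).

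The 3 lowest medians of the 24 lists belonged to the miR-322 and miR-503 cluster, the miR-15/16 family and the joint list of miR-34 with miR-449, none of which held a call when all 7 libraries were used. The miR-322 and miR-503 cluster had 10 of 11 members negative and a median of -0.63. Over all 697 features, 336 were negative. miR-322-3p was at 19.4 and 16.7 in A129-17 against 78.8 and 60.8 in A129-2 and 38.8, 61.2 and 24.03 in A129-6 (-1.57, SE 0.42, adjusted p = 0.0632), and miR-322-5p at 3.85 and 4.26 in A129-17 and 6.05 to 30.2 in the others (-1.76, SE 0.52, adjusted p = 0.107). Both arms were below all other libraries, as were 6.31% of all features. Both passed without A129-6 replicate 3 (-1.71, SE 0.37, adjusted p = 0.0129, and -1.85, SE 0.48, adjusted p = 0.0290). miR-351-5p, the most abundant member of the same cluster, was at 850 and 298 in A129-17 and 396 to 821 in the others (-0.07, SE 0.36). The miR-15/16 family, which targets cyclins, had 6 of 8 negative and a median of -0.61; miR-16-5p was at 47.1 and 23.6 in A129-17 against 76.4 and 133.4 in A129-2 and 74.0, 72.3 and 41.6 in A129-6 (-1.197, SE 0.41, adjusted p = 0.151). miR-34, which p53 induces, and miR-449 together had 4 of 4 negative and a median of -0.74; miR-34c-5p was at 69.6 and 89.7 in A129-17, 71.7 in A129-6 replicate 3 and 132 to 213.6 in the other 4 (-0.89, SE 0.34, adjusted p = 0.201). With A129-6 replicate 3 left out, 2 members of the first, 1 of the second and 1 of the third list were called lower, where 3.34% of all features were.

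**Figure D4:**
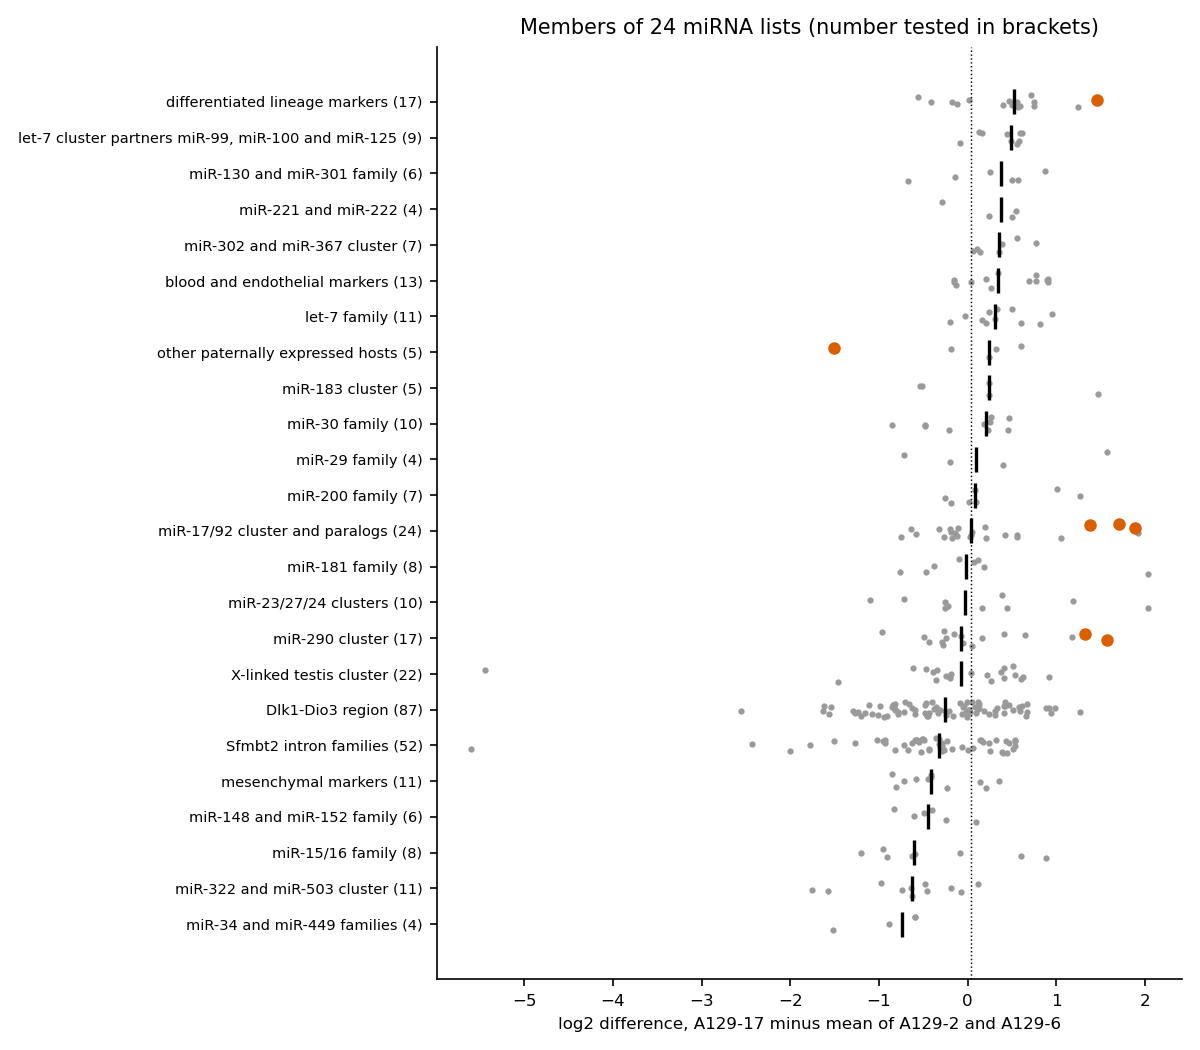
Log2 difference between A129-17 and the mean of A129-2 and A129-6 for the tested members of 24 lists, ordered by median; points are miRNAs, filled larger points are calls, black bars are list medians and the dotted line is the median of all features (0.04). With total-count scaling that median is -0.37 and 11 of the 24 list medians turn sign. Medians run from -0.74 for the miR-34 and miR-449 families to 0.52 for the differentiated lineage markers, and calls occur in 4 lists.

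The remaining lists held no call with all 7 libraries except that of lineage markers. Medians were 0.08 for the epithelial miR-200 family (7 tested), 0.24 for the miR-183 cluster (5), 0.10 for miR-29 (4), -0.45 for miR-148 and miR-152 (6), 0.37 for miR-221 and miR-222 (4), -0.01 for miR-181 (8), 0.21 for miR-30 (10), -0.03 for the miR-23/27/24 clusters (10) and 0.38 for miR-130 and miR-301 (6). With total-count scaling the medians of miR-200 (-0.29), miR-183 (-0.11), miR-29 (-0.32), miR-221 and miR-222 (-0.03), miR-30 (-0.21) and miR-130 and miR-301 (-0.09) were negative. In the fit without A129-6 replicate 3, miR-200b-5p (1.45, SE 0.39, adjusted p = 0.0317) and miR-181d-3p (2.45, SE 0.72, adjusted p = 0.0425) were called higher, the second from levels of at most 5.23 normalised CPM. miR-23a-3p was called lower (-1.21, SE 0.30, adjusted p = 0.0265), at 61.3 and 81.4 in A129-17 against 127.7 to 224 in 4 of the others and 76.4 in A129-6 replicate 3.

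Markers of other cell types were present in all 3 lines. The 11 mesenchymal markers summed to 11214 and 15717 normalised CPM in A129-17 against 22940 and 11578 in A129-2 and 9748 to 12334 in A129-6, mostly miR-143-3p. None of the 11 was at 0 in all libraries, 0 were called and the median was -0.41; miR-199a-5p was called lower without A129-6 replicate 3 (-0.98, SE 0.29, adjusted p = 0.0425), at 77.9 and 82.0 in A129-17, 74.4 in that library and 147 to 174 in the other 4. The 13 tested blood and endothelial markers summed to 563 and 1049 in A129-17 and 554 to 778 in the others (median 0.34, or -0.01 with total-count scaling, with 0 called), and miR-223-3p, a myeloid marker, had 0 and 3 counts in A129-17. In each library, counts were equal for miR-126a-5p and miR-126b-3p, and for miR-142a-3p and miR-142b. Those of the tested miR-486 entries were nearly equal. This sum and median therefore hold repeated measurements. The 17 tested markers of differentiated lineages summed to 1613 and 1578 in A129-17 and 1100 to 1503 in the others, with a median of 0.52. miR-219a-1-3p was the 1 called (5.88%, beside 1.58% of all features called higher), and miR-137-3p and the cardiac miR-208a-3p and miR-208b-3p were at 0 in all 7. Leaving out A129-6 replicate 3, miR-1a-3p and miR-1b-5p were also called higher, where 6.53% of all features were. They have almost the same counts in each library and stand for 1 measurement, although both enter the sum and median of the lineage list. Whether the reads of these markers came from other cells or from the ESC themselves was not tested, nor was their part in the differences.

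Differences went with the base composition of the miRNA. Over 360 miRNAs with a RefSeq sequence and a mean log2 CPM above 3, the correlation between the share of G and C and the difference was 0.330 (Spearman's rho) and 0.345 (Pearson's r), as a description across miRNAs that share the same 7 libraries. The median difference was -0.34 for 21 miRNAs under 35% GC, -0.20 for 84 from 35% to 45%, -0.09 for 156 from 45% to 55%, 0.32 for 65 from 55% to 65% and 0.32 for 34 above. The 11 miRNAs called higher had a median GC content of 60.9%, against 50% over the 555 tested miRNAs with a sequence, and miR-335-3p had 36.4%. Taken library by library, rho between GC content and the log2 level relative to the mean of the 7 was 0.395 and 0.172 for A129-17, 0.173 and -0.228 for A129-2 and -0.327, -0.353 and -0.066 for A129-6. When the trend with GC was fitted per library and removed, 5 of the 12 remained called (miR-3473b, miR-3473e, miR-92a-1-5p, miR-92a-2-5p and miR-290a-3p, each with an adjusted p of 0.0458) among 555 features. The other 7 had adjusted p of 0.0563 to 0.133, with differences of 0.93 (miR-760-3p) to 1.12 (miR-219a-1-3p) for the 6 that were higher, against 1.33 (miR-291b-5p) to 1.46 (miR-219a-1-3p) before, and of -1.21 against -1.51 for miR-335-3p. With A129-6 replicate 3 left out as well, 66 of 552 were called, among them all 12.

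**Figure D5:**
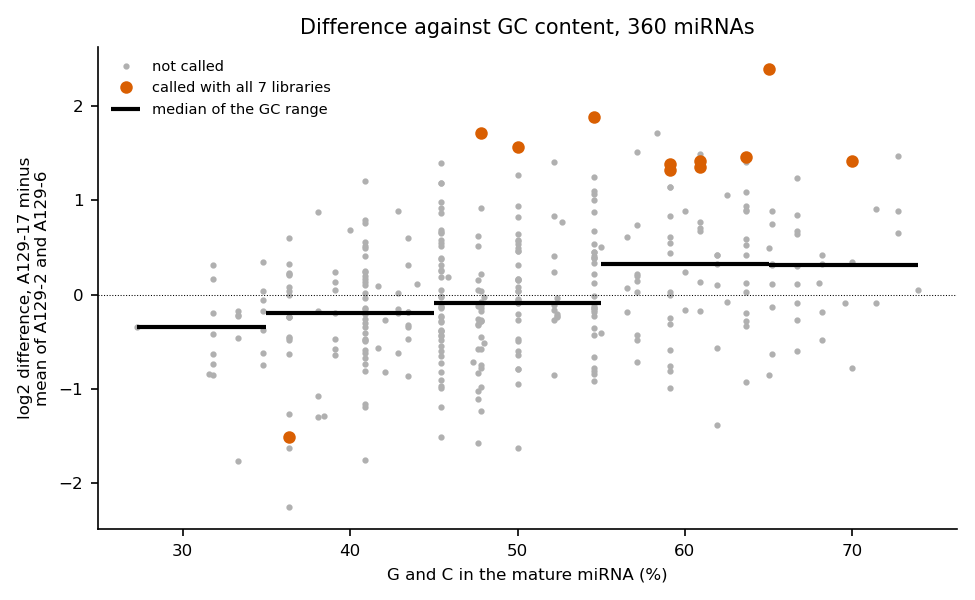
Log2 difference between A129-17 and the mean of A129-2 and A129-6 against the share of G and C in the mature miRNA, for 360 miRNAs; filled points are 11 of the 12 calls (miR-3473e is below the level needed) and black bars are medians of GC ranges. Medians rise from -0.34 under 35% GC to 0.32 above 55%.

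By chromosome, medians ran from -0.46 for 15 miRNAs on chromosome 10 to 0.52 for 18 on chromosome 17, and calls were spread over 10 chromosomes, with 2 each on chromosomes 5 and 7. Chromosome 12, with 101 tested, had a median of -0.16.

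On a scale fitted to the 9 ESC libraries, diploid R1 was above the mean of A129-2 and A129-6 for 3 of the 11 miRNAs called higher in A129-17 (miR-3473e, miR-290a-3p and miR-219a-1-3p), and for 41.8% of all 697. For miR-290a-3p the mean was 168 ± 18.4 in R1 and 132 ± 40.0 in A129-17, above the 39.8 ± 17.3 of A129-2 and the 53.2 ± 11.8 of A129-6 (SD here and below, with n = 2 libraries except 3 for A129-6). miR-291b-5p, in contrast, was at 250 ± 12.1 in R1, 4286 ± 656 in A129-17, 1569 ± 116 in A129-2 and 1990 ± 947 in A129-6, so that A129-17 was the line farthest from R1. miR-335-3p was at 1095 ± 35.5 in R1, 56.2 ± 20.4 in A129-17, 156 ± 29.6 in A129-2 and 175 ± 48.1 in A129-6, again with A129-17 farthest from R1. Of the miRNAs called without A129-6 replicate 3, R1 was above the mean of the other haploid lines for 7 of the 45 higher and for 18 of the 23 lower. let-7a-5p was at 189 ± 3.78 in R1, 1207 ± 331 in A129-17, 779 ± 180 in A129-2 and 869 ± 196 in A129-6.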

How the data were processed

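Small RNA libraries of 7 haploid ESC samples were compared, with 2 R1 libraries beside them; spermatids were left out. The authors deposited raw counts per miRNA for 1549 features (1366 with a miRBase name, 183 predicted) in 12 columns. Bowtie 0.12.9 and DESeq2 appear in the submitters' processing notes. Build, miRBase release, strand and handling of multiple matches: not given in the sources used here. Counts of the 7 libraries were filtered with filterByExpr by line (minimum count 10 and total 15). TMM scaling was followed by edgeR 4.0.16 (R 4.3.3; quasi-likelihood F-test on line means, Benjamini-Hochberg adjustment, threshold 0.05). SE is the log2 difference over the square root of F. The fit was tested on simulated data. Sequences matched 1158 of 1366 named features and 555 of 675 tested (82.2%), from RefSeq (GRCm38.p6). The labels do not say that replicate numbers pair samples, so these gave no block in the main fit.

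Named miRNAs were the 10 largest called increases and decreases at 10 CPM or more with no overlap between groups, the 10 most abundant, for each of 24 lists the most abundant member and that of smallest p, and all let-7 5p arms. Members and lists were chosen with earlier results of these data known. Alternatives were other scalings, DESeq2 1.42.0, other filters, R1 in the fit, a replicate block, GC correction (loess per library), equal weights per library and leaving out each library.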

Additional observations from a re-analysis of the deposited data

How the results depend on the processing

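For A129-17 against the mean of A129-2 and A129-6, the 12 calls became 10 with RLE scaling, 11 with upper-quartile scaling, 8 with scaling on miRNAs outside the miR-290 cluster and 11 with R1 in the fit. With total-count scaling 0 passed in edgeR (17.5% of 697 at an unadjusted p below 0.05); that scaling moved the median of all features from 0.04 to -0.37 and put the medians of 11 of 24 lists on the other side of 0, let-7 (-0.07) among them. DESeq2 called 32 (17 higher, 15 lower, so a split of nearly even sides), no filter 26, a stricter filter 6, GC correction 5 and the replicate block 48. With A129-2 and A129-6 pooled as a single group of 5 libraries, 0 passed (103 unadjusted). In that fit the difference between the pooled lines entered the estimate of spread. Leaving out 1 library gave 1 (without A129-2 replicate 2) to 68 (without A129-6 replicate 3); without A129-2 replicate 1 there were 4, without A129-6 replicate 1 4 and replicate 2 6, without A129-17 replicate 1 4 and replicate 2 5. Of alternatives chosen after seeing the data, leaving out both libraries of lowest TMM factor gave 86, and GC correction without A129-6 replicate 3 gave 66. The 12 kept their sign in every alternative run, and 11 of them were also called by DESeq2, which gave no adjusted p for miR-3473e.

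Against A129-2, 0 became 1 with total-count scaling, 46 with DESeq2, 31 with no filter, 45 with the replicate block, 77 without both libraries of lowest TMM factor and 55 with GC correction and without A129-6 replicate 3; leaving out 1 library gave 0 to 51. Against A129-6, 0 became 1 with scaling on miRNAs outside the miR-290 cluster, 16 with DESeq2, 5 with no filter, 20 with the replicate block, 40 without the libraries of lowest TMM factor and 10 with GC correction and without A129-6 replicate 3; leaving out 1 library gave 0 to 20. For A129-6 against A129-2, 18 became 7 with total-count scaling, 35 with DESeq2, 29 with no filter and 40 without the libraries of lowest TMM factor, and leaving out 1 library gave 0 to 30. Only A129-6 has a replicate 3, so the replicate block fits that library with a term of its own. It thereby takes the library out of the line differences and is no separate alternative to leaving it out. The cause of the other shifts was not tested, beyond fewer features or samples in the fits that drop them. Deviations of same-numbered libraries correlated at -0.135 to 0.181, so the block carries no known pairing.

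Of 54 named miRNAs not called, 19 were called in at least 1 alternative, 13 of them without A129-6 replicate 3, and 23 changed sign in an alternative that did not call them. Without replicate 3 of A129-6 that line has 2 libraries; where a line kept 1, it was assumed to vary like the others. With 2 A129-17 libraries, miRNAs of few counts limit what can be detected.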
